A study of Mus musculus with 2 samples.

Results

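Of the 43437 genes measured in the telencephalon and the whole body of fetal mice, the 8 described here make, package, take up or break down the inhibitory transmitter GABA, set the chloride gradient on which it acts, or anchor its receptors. They were taken by symbol as Gad1, Gad2, Slc32a1, Slc6a11, Abat, Slc12a2, Slc12a5 and Gphn, and they have 26 of the 103615 isoform entries. RNA came from the telencephalon, the forebrain vesicle that gives rise to cortex and basal ganglia, and from the whole body of untreated wild-type mouse fetuses of the outbred ICR stock at E12.5, and each tissue has 1 library. The labels give neither the number of fetuses in a library nor whether the whole body kept the head. Levels are FPKM, in which fragments are divided by transcript length and library depth. They put genes and libraries on a common scale but do not correct for differences in RNA composition between the libraries. The FPKM of all genes summed to 447888 in telencephalon and 502131 in whole body. With 1 library per tissue no difference has a replicate check, no p-value is given, and intervals cover counting error only.

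GABA is made from glutamate by the decarboxylases GAD67 and GAD65, the products of Gad1 and Gad2, is loaded into vesicles by the transporter encoded by Slc32a1, is taken up again by plasma membrane transporters and is broken down in mitochondria by the transaminase Abat. Its main receptors are chloride channels, so its effect on a neuron depends on chloride. The cotransporter NKCC1 (Slc12a2) brings chloride into cells and KCC2 (Slc12a5) moves it out, and in brain KCC2 is known to become abundant as neurons mature. Gephyrin (Gphn) is the scaffold under inhibitory synapses and, in every tissue, an enzyme of molybdenum cofactor synthesis.

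In telencephalon 5 of the 8 genes were 2-fold or more higher than in whole body, none was 2-fold lower and 3 lay within 2-fold, on a log2 scale of FPKM + 1. The background was 14987 measured genes, those that reached 1 FPKM in at least 1 of the libraries, of which 9.39% were past 2-fold on the higher side and 21.2% on the lower side. The median log2 ratio of the 8 genes was 1.10, against -0.16 for all measured genes. All 8 genes reached 1 FPKM in both libraries. The 5 higher genes were Gad1, Gad2, Slc32a1, Slc12a2 and Slc12a5, and the genes within 2-fold were Slc6a11, Abat and Gphn. In telencephalon the order of levels ran from Slc32a1 at the top through Gad2, Abat, Gad1, Slc12a2, Gphn and Slc12a5 to Slc6a11. In whole body it began with Abat and Slc12a2 and ended with Gad1, Gad2 and Slc6a11. Without replicates, no spread is available to say which neighbours in these orders differ.

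**Figure D1:**
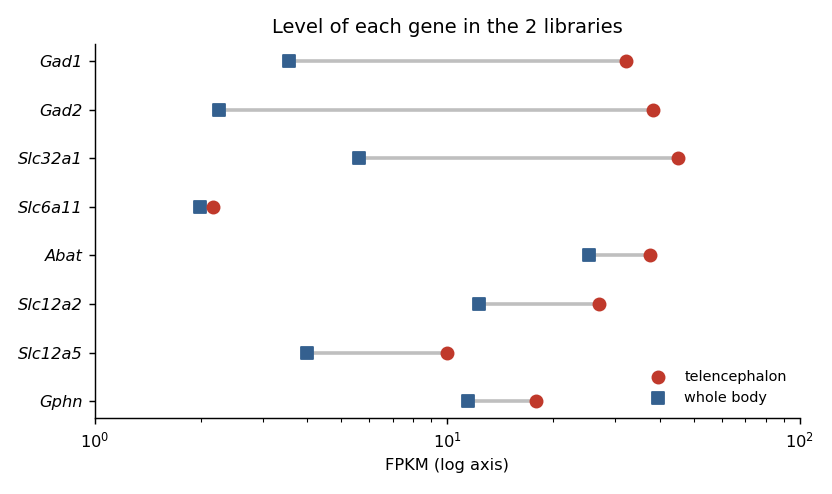
FPKM of each of the 8 genes on a log axis, with a red circle for the telencephalon library and a blue square for the whole-body library. The widest gaps are those of Gad2 (38.4 against 2.24 FPKM), Gad1 and Slc32a1, and the narrowest that of Slc6a11 (2.15 against 1.99 FPKM).

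The synthesis and packaging genes stood furthest apart between the libraries. Gad2, which encodes the membrane-associated decarboxylase GAD65 (chromosome 2, 22622205 to 22693874, GRCm38, plus strand), was at 38.4 FPKM in telencephalon, against 2.24 in whole body, a 17.1-fold higher level. That rested on about 3943 and 327 fragments, whose ratio scaled to depth was 15.4 with a 95% counting interval from 13.8 to 17.3. Gad1, which encodes GAD67, the enzyme that makes most of the brain's GABA (chromosome 2, 70553072 to 70602014, plus strand), was at 32.1 FPKM in telencephalon, against 3.56 in whole body, 9.04-fold higher. Summed over protein-coding isoforms alone it was at 27.5 FPKM in telencephalon, against 1.32 in whole body, 20.9-fold higher. Its log2 ratio of 3.62 then stood above the 3.42 of Gad2. This sum includes partial transcripts and is not a level of full-length GAD67 RNA. In whole body 1.06 FPKM of it was Gad1-202, with 748 coding bases, on about 26 fragments. Full-length Gad1-201, with 1779 coding bases, was at 0.141 FPKM there. Slc32a1, the only known vesicular transporter of GABA and glycine (chromosome 2, 158610767 to 158615748, plus strand), was at 45.2 FPKM in telencephalon, against 5.61 in whole body. By log2 ratio these genes ranked 55 (Gad2), 110 (Gad1) and 120 (Slc32a1) from the highest of 14987. In bulk tissue, fewer cells that express a gene and less of its RNA in each cell cannot be told apart.

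The level of Slc32a1 has a limit of its own. An antisense gene, Gm14205, shares 697 of its 2797 exonic bases, or 24.9%, and was itself at 46.3 FPKM in telencephalon, against 3.95 in whole body. The library kit named in the labels does not mark strand, so reads of the shared stretch cannot be told apart. The processed pseudogene Gad1-ps was at 0.134 FPKM in telencephalon, against 0.0230 in whole body. No other annotated gene shared exonic bases with Gad1, Gad2, Abat, Slc6a11, Slc12a2 or Slc12a5, while Gphn shared 147 of 3749 with the divergent RNA Gm48226.

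The balance between the 2 decarboxylases depended on which isoforms were counted. In the deposited gene values of telencephalon Gad1 stood below Gad2, with a Gad1 to Gad2 ratio of FPKM of 0.837 (95% counting interval 0.788 to 0.888). In those of whole body Gad1 stood above Gad2, with a ratio of 1.59 (1.32 to 1.90), so that the telencephalic ratio was 0.528 times the whole-body one (0.436 to 0.640). With protein-coding isoforms alone the ratio was 0.867 in telencephalon and 0.637 in whole body, and the direction turned, to 1.36 times. Most of the difference between these counts is Gad1-206, a whole-body isoform with no annotated reading frame that is described with the isoforms of Gad1. The direction of the contrast therefore cannot be given from these values.

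The stretches just upstream of Gad1, Gad2 and Slc32a1, the 3 genes with the largest ratios, are shown because the levels of these genes were high together. They come from the RefSeq promoter table (GRCm38.p6), which held 6 of the 8 genes, and end at the first base of any annotated exon, in lower case with motif letters in capitals.
Gad1, chr2:70561879-70562041, plus strand: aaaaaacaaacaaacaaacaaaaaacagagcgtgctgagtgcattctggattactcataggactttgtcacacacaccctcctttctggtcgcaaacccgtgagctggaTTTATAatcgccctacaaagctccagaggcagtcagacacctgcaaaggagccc
Gad2, chr2:22622077-22622204, plus strand: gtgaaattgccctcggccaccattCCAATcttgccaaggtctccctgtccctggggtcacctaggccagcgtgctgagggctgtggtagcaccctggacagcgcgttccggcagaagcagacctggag
Slc32a1, chr2:158610508-158610766, plus strand: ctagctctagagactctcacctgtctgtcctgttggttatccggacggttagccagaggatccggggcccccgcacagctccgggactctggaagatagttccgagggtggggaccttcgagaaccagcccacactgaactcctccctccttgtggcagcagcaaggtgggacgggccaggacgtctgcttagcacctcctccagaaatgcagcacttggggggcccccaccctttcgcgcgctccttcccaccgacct

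Motifs were looked for on both strands of windows from 250 bases before to 50 bases after each start. The TATA-box letters TATAAA occurred in Gad1, on the minus strand 141 bases before the start, and in 13.6% of all 32851 promoters. The letters CCAAT occurred in Gad2 and Slc12a5, and in 37.4% of all promoters. The homeodomain core TAATTA (5.29% of all promoters), the E-box CAGCTG (16.3%) and TTCAGCACC, the left part of the element bound by the repressor REST (0.371%), were in none of the windows of the 6 genes. None of these motifs overlaps another in the stretches shown. A match, or its absence, describes these letters only.

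Gad1 RNA was made up of different annotated isoforms in the 2 libraries. The leading isoform of Gad1 in telencephalon was Gad1-201, a transcript of 3355 bases in 17 exons that encodes full-length GAD67, at 18.02 FPKM, against 0.141 in whole body. Its share of the gene's summed isoform FPKM was 56.1% in telencephalon and 3.95% in whole body. In whole body the leading isoform was Gad1-206, a transcript of 2996 bases with no annotated reading frame, at 0.00840 FPKM in telencephalon (about 1 fragment), against 1.65 in whole body (about 128 fragments). The largest shift of an isoform's share, 52.1 percentage points, was larger than that of 97.6% of the 8762 genes with at least 2 isoforms and 1 FPKM or more in both libraries. The leading isoform differed between the libraries in 16.7% of those genes, and Gad1 was the only one of the 5 multi-isoform genes described here in which it did.

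The exchange between Gad1-201 and Gad1-206 rests on few bases. These isoforms share 2919 bases and 14 identical exons. Gad1-201 has 436 bases of its own, nearly all in exons of 291 and 143 bases at the 5′ end, and Gad1-206 has a first exon of 77. Joined, they were at 18.03 FPKM in telencephalon, compared with 1.79 in whole body, a 10.1-fold higher level, and made up 56.1% and 50.3% of Gad1 in these libraries. The division of whole-body reads between them was estimated by the authors' software from about 141 fragments, against about 1234 in telencephalon.

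**Figure D2:**
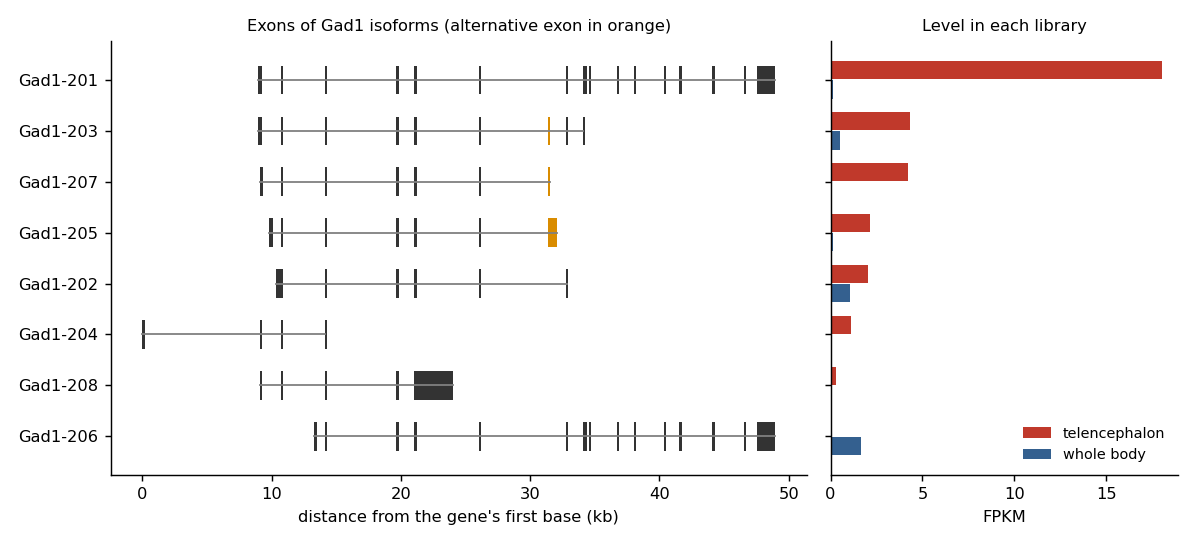
Left, exons of the 8 Gad1 isoforms by distance in kb from the gene's first base, with the alternative exon in orange. Right, FPKM of each isoform in telencephalon (red) and whole body (blue): Gad1-201 leads in telencephalon at 18.02 FPKM and Gad1-206 in whole body at 1.65 FPKM.

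A further group of Gad1 isoforms keeps an alternative exon with a stop codon. In embryonic rodent brain such transcripts are known. Their reading frame up to this stop encodes a truncated GAD without the catalytic domain. Gad1-203, Gad1-205 and Gad1-207 hold this exon, which begins at position 70584420 of chromosome 2 and lies between exons 6 and 7 of Gad1-201. It is 80 bases long in Gad1-203, 181 in Gad1-207 and 702 in Gad1-205, and in each the reading frame ends after 34 bases of it. The junctions are shown because they separate the truncated from the full-length reading frame. Lower case marks the last 30 bases of exon 6 (chr2:70579172-70579201) and capitals the 37 bases that follow it, ending in the alternative exon with the stop codon TGA.
Exon 6 to alternative exon (chr2:70584420-70584456): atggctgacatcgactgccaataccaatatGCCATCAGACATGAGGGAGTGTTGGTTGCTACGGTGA
Exon 6 to exon 7 of Gad1-201 (chr2:70585834-70585870): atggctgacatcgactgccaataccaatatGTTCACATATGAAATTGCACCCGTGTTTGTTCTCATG

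The 3 isoforms with the alternative exon together were at 10.7 FPKM in telencephalon, against 0.634 in whole body. They made up 33.2% of Gad1 isoform FPKM in telencephalon and 17.8% in whole body. These sums stand for about 218 fragments in telencephalon and about 18 in whole body, a 16.8-fold higher FPKM with a counting interval of the fragment ratio from 9.57 to 26.6. Gad1-203, the highest of the 3 in both libraries, was at 4.33 FPKM in telencephalon, compared with 0.523 in whole body. It is annotated as a target of nonsense-mediated decay and not as protein-coding, so these sums are not levels of RNA translated into truncated GAD. Translation was not measured. Gad1-207 was at 4.21 FPKM in telencephalon and had no estimated fragment in whole body. Gad1-205 was at 2.13 FPKM in telencephalon, compared with 0.111 in whole body.

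The isoforms of neither group were a smaller part of Gad1 in telencephalon than in whole body. Gad1-202, Gad1-204 and Gad1-208 together were at 3.42 FPKM in telencephalon, against 1.13 in whole body, or 10.6% and 31.9% of the gene. Most of that was Gad1-202, a 1138-base transcript that stops at exon 7, at 2.02 FPKM in telencephalon, compared with 1.06 in whole body. Gad1-204, at 1.13 FPKM in telencephalon, has 398 bases, little more than the 326 subtracted from lengths in that library, so its level comes from about 2 fragments. Gad1-208 keeps an intron and was at 0.276 FPKM in telencephalon, compared with 0.0706 in whole body.

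Gad2 had a simpler pattern. Gad2-201, the coding transcript of 5744 bases, held 82.6% of the gene in telencephalon and 92.2% in whole body. Gad2-202, a 721-base transcript without a reading frame, was at 6.67 FPKM in telencephalon on about 60 fragments, against 0.175 in whole body on about 2 fragments.

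**Figure D3:**
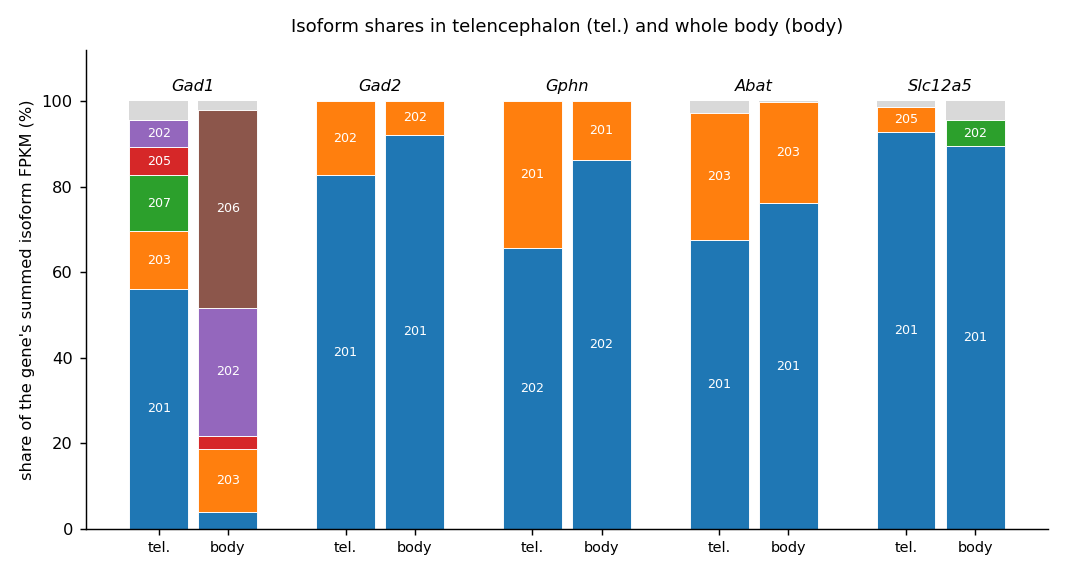
Share of each gene's summed isoform FPKM (%) in telencephalon (left bar of each pair) and whole body (right bar), with numbers naming isoforms and grey for those under 5% in both libraries. Gad1-201 holds 56.1% in telencephalon and 3.95% in whole body, while the leading isoforms of Gad2, Gphn, Abat and Slc12a5 are the same in both.

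The genes of GABA uptake and breakdown differed less between the libraries. Slc6a11, which encodes the GABA transporter GAT-3, known in adult brain from astrocytes (chromosome 6, 114131241 to 114249952, plus strand), was at 2.15 FPKM in telencephalon, against 1.99 in whole body. The fragment ratio was 1.07 with a counting interval from 0.876 to 1.31, which includes 1. It was the lowest of the 8 genes in both libraries. Abat, the transaminase that degrades GABA and that liver also expresses (chromosome 16, 8513429 to 8621568, plus strand), was at 37.6 FPKM in telencephalon, against 25.3 in whole body, 1.49-fold higher. Its fragment ratio was 1.39, with an interval from 1.32 to 1.46.

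Abat was divided between a pair of coding isoforms in both libraries. Abat-201 held 67.6% in telencephalon and 76.1% in whole body. Abat-203 held 29.6% and 23.6%, at 11.2 and 5.97 FPKM. Every base of Abat-203 lies in Abat-201, which has a longer 3′ end and a coding exon of 168 bases (chr16:8611127-8611294) that Abat-203 lacks.

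Transporters of GABA known from other tissues were low in telencephalon. Slc6a13, which encodes GAT-2, known from liver, kidney and meninges, was at 0.0694 FPKM in telencephalon on about 3 fragments, against 8.04 in whole body on about 353. Slc6a12, the betaine and GABA transporter, was listed at 0 in telencephalon, against 1.65 FPKM in whole body. It is named as a family member, after its value was seen. Slc6a11, at 2.15 FPKM in telencephalon, against 1.99 in whole body, thus stood above both in telencephalon and below Slc6a13 in whole body.

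The list of GABA, glycine and related transporters had 16 measured genes, with 4 at least 2-fold higher and 5 lower in telencephalon, with a median log2 ratio of 0.10. Among the highest ratios were those of Slc17a7, a vesicular glutamate transporter (11.0 FPKM in telencephalon, 0.885 in whole body), and Slc1a2, a glutamate uptake carrier (28.7 and 10.6 FPKM in the same order). Slc6a9, a glycine transporter, was 6.99-fold lower (5.19 FPKM in telencephalon, 36.3 in whole body). Slc38a5, a glutamine carrier, was 4.38-fold lower.

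None of 12 measured genes of GABA metabolism was 2-fold higher in telencephalon and 5 were lower, with a median log2 ratio of -0.84. Aldh5a1, the dehydrogenase that acts after Abat, was at 7.41 FPKM in telencephalon, compared with 6.24 in whole body. Glul, glutamine synthetase, was at 81.2 FPKM in telencephalon, compared with 88.7 in whole body. The lower genes included enzymes of the route from putrescine: Maob was at 0.363 FPKM in telencephalon, against 5.27 in whole body, and Aldh9a1 at 6.08, against 21.8. Sat1, which acetylates polyamines, was at 5.98 FPKM in telencephalon, against 15.1 in whole body.

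Both chloride cotransporters were higher in telencephalon, by similar factors. Slc12a2, encoding NKCC1 (chromosome 18, 57878678 to 57946821, plus strand), was at 27.0 FPKM in telencephalon, against 12.3 in whole body, 2.20-fold higher, with a fragment ratio of 2.19 and a counting interval from 2.08 to 2.31. Slc12a5, encoding KCC2 (chromosome 2, 164960802 to 164999731, plus strand), was at 9.96 FPKM in telencephalon, against 3.996 in whole body, 2.49-fold higher, with a fragment ratio of 2.64 and an interval from 2.39 to 2.92. The log2 ratios of FPKM + 1 were 1.08 for Slc12a2 and 1.13 for Slc12a5, just past the 2-fold limit.

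The Slc12a2 to Slc12a5 ratio was above 1 in both libraries. It was 2.71 in telencephalon (95% counting interval 2.54 to 2.89) and 3.07 in whole body (2.80 to 3.37). The telencephalic ratio was 0.881 times that of whole body, with a counting interval from 0.787 to 0.986. The upper bound lies close to 1, and the variation between libraries is not in this interval.

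Slc12a2 had a single isoform entry. Slc12a5 had 4, of which the coding Slc12a5-201 held 92.7% in telencephalon and 89.5% in whole body. With protein-coding isoforms alone the Slc12a2 to Slc12a5 ratio was 2.92 in telencephalon and 3.43 in whole body. Slc12a5-205, which keeps introns, was at 0.603 FPKM in telencephalon on about 36 fragments, with none estimated in whole body.

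**Figure D4:**
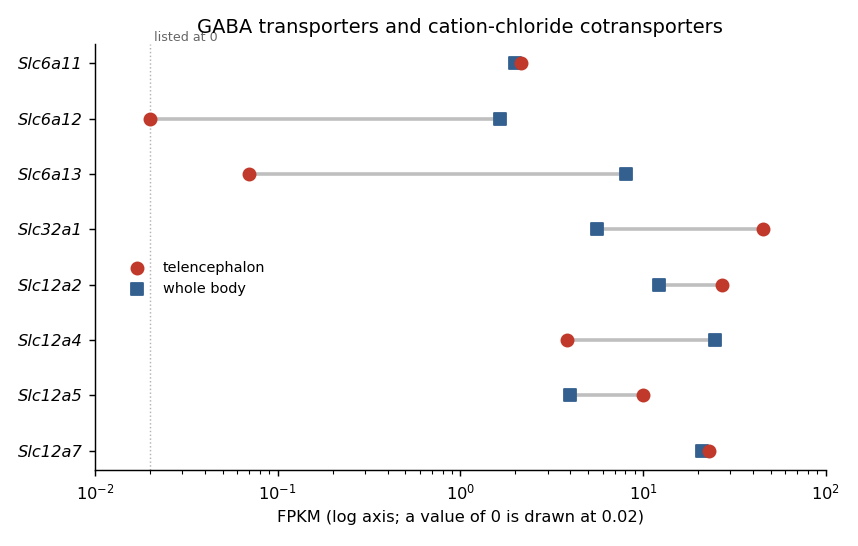
FPKM (log axis) of GABA transporters and of potassium-coupled chloride cotransporters in telencephalon (red circles) and whole body (blue squares); a value of 0 is drawn at 0.02. Slc6a12 and Slc6a13 are lower in telencephalon, and Slc12a4 is lower in telencephalon (3.82 against 24.8 FPKM) where Slc12a5 is higher.

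The chloride-extruding cotransporters Slc12a4 and Slc12a7, named as family members after their values were seen, were at levels above Slc12a5 in whole body. Slc12a4, the widely expressed KCC1, was at 3.82 FPKM in telencephalon, against 24.8 in whole body, 6.49-fold lower. Slc12a7 (KCC4) was at 22.8 FPKM in telencephalon, compared with 20.9 in whole body, and stood above Slc12a5 in telencephalon too.

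Of 18 measured genes of the wider chloride transport list, 1 was higher in telencephalon and 5 lower, with a median log2 ratio of -0.41. The higher gene was Slc4a8, a sodium-driven chloride and bicarbonate exchanger of neurons, at 11.0 FPKM in telencephalon, against 3.36 in whole body. The anion exchanger Slc4a1, a red cell protein, was 59.7-fold lower, as was, by 5.54-fold, the endosomal exchanger Clcn5.

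Among 13 measured regulators of the cotransporters, 4 were higher and 3 lower, with a median log2 ratio of 0.51. Ckb, the brain creatine kinase, which binds KCC2, was at 941 FPKM in telencephalon, against 130 in whole body. Wnk2, a kinase of the family that activates NKCC1 and inhibits KCC2, was at 53.9 FPKM in telencephalon, against 15.7 in whole body, and Wnk3 of the same family, named after its value was seen, at 13.4 FPKM, against 5.18. Their relatives Wnk1 (48.0 against 102.7 FPKM) and Wnk4 (0.366 against 5.58 FPKM) were lower. Neto2, an auxiliary protein of KCC2, was at 10.3 FPKM in telencephalon, against 3.73 in whole body. Rest, which encodes a repressor of neuronal genes, was at 3.85 FPKM in telencephalon, against 11.6 in whole body.

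Gphn, the gephyrin gene (chromosome 12, 78226379 to 78684772, plus strand), was at 17.8 FPKM in telencephalon, against 11.4 in whole body, 1.56-fold higher. Its fragment ratio was 1.58, with a counting interval from 1.45 to 1.72. The difference lay mostly in one of its isoforms. Gphn-201 was at 6.13 FPKM in telencephalon, against 1.56 in whole body, 3.92-fold higher (counting interval 3.21 to 4.70). Gphn-202 was at 11.7 FPKM in telencephalon, against 9.85 in whole body, 1.18-fold higher (1.06 to 1.29). Gphn-201 therefore held 34.4% of the gene in telencephalon and 13.7% in whole body, and Gphn-202 led in both. The shift of 20.8 percentage points was larger than that of 79.3% of the 8762 genes compared.

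The Gphn isoforms differ in 3 coding cassettes, shown in capitals because these letters and the transcript ends are all that separates the isoforms. Gephyrin is known to be spliced through such cassettes, and a cassette in its central linker is known to be kept in non-neuronal tissues and mostly skipped in neurons. Gphn-202 has a cassette of 108 bases that Gphn-201 lacks, and Gphn-201 has cassettes of 57 and 42 bases that Gphn-202 lacks. All are on the plus strand, and the isoforms share 3192 bases.
Gphn-202 exon 8 (chr12:78493950-78494057): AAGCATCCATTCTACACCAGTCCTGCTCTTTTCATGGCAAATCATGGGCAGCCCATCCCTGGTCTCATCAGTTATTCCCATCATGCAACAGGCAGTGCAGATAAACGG
Gphn-201 exon 9 (chr12:78522898-78522954): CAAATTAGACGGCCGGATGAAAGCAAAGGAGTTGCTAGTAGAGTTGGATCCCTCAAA
Gphn-201 exon 10 (chr12:78532657-78532698): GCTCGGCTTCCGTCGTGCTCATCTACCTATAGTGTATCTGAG

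Genes of the inhibitory synapse and of molybdenum cofactor synthesis spread to both sides of Gphn. In this list of 16 measured genes, 3 passed 2-fold on the higher side and none on the lower, with log2 ratios from -0.95 to 2.10 and a median of 0.49, against 0.60 for Gphn. The higher ones were Lhfpl4, a partner of the GABA receptor (38.7 FPKM in telencephalon, 8.26 in whole body), the motor gene Kif5a (33.4 and 12.4 FPKM in the same order) and Iqsec3, a gephyrin-binding exchange factor (7.59 and 2.40 FPKM). At the other end were Mocs1, which acts before gephyrin in the cofactor pathway (3.92 FPKM in telencephalon, 8.34 in whole body), Suox, an enzyme that needs the cofactor (4.89 and 9.27 FPKM), and Pfn1, a profilin that binds gephyrin (393 and 759 FPKM).

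**Figure D5:**
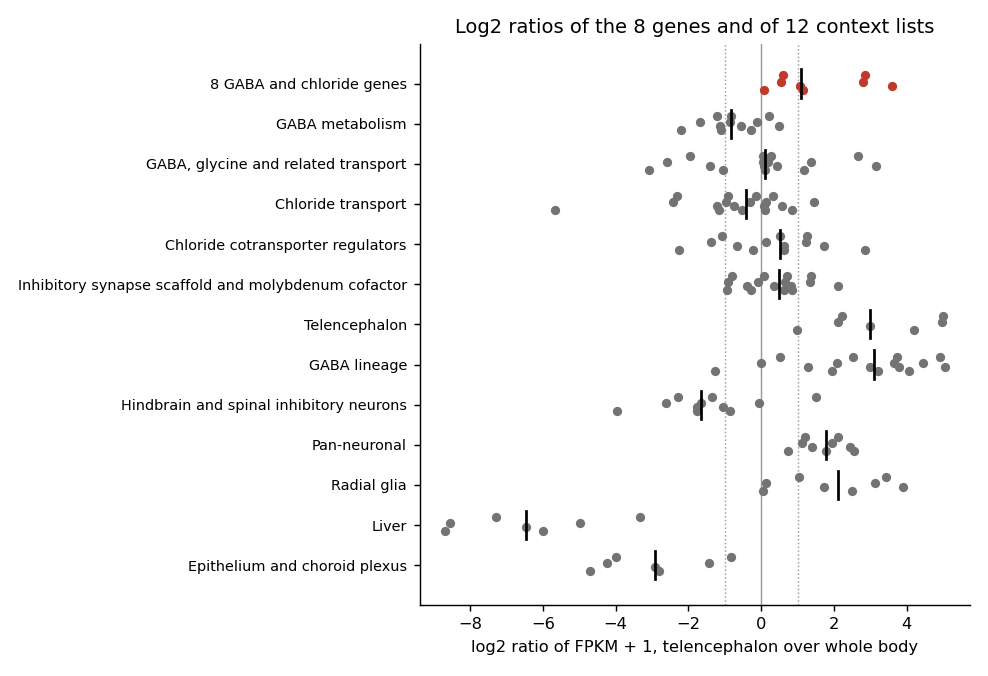
Log2 ratio of FPKM + 1 (telencephalon over whole body) for the 8 genes (red) and for the measured genes of 12 context lists (grey); black ticks are medians and dotted lines mark 2-fold. The 8 genes have a median of 1.10, between the pan-neuronal list (1.77) and the scaffold list (0.49).

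Markers of the tissues moved with these results. Of 7 telencephalon markers 6 were at least 2-fold higher in the telencephalon library and none lower, and the list summed to 597 FPKM in telencephalon and 38.9 in whole body. Of 16 genes of the GABA lineage 13 were higher and 1, Maf, lower (sums of 1197 and 141 FPKM in the same order). Of 9 measured pan-neuronal genes 8 were higher (sums of 1068 and 310 FPKM), with log2 ratios from 0.73 in Ncam1 to 2.55 in Elavl3. The log2 ratios of Slc12a2, Slc12a5, Abat, Gphn and Slc6a11 lay below the pan-neuronal median of 1.77, and those of Gad1 (2.86), Gad2 (3.60) and Slc32a1 (2.81) above it. Of 8 radial glia genes 6 were higher and none lower (sums of 1541 and 1024 FPKM). All 7 liver genes (sums of 5.23 and 2149 FPKM) and 6 of 7 measured genes of epithelium and choroid plexus (1.52 and 85.6 FPKM) were lower in telencephalon, with Apoa2, Serpina1a and Krt18 listed at 0 there. The part of these cell types in the levels of the 8 genes was not tested.

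Relative to telencephalon, the whole-body levels of the GABA genes lay within the spread of the GABA lineage list. The whole-body level was 11.1% of the telencephalic level for Gad1, 5.84% for Gad2 and 12.4% for Slc32a1. For the 16 genes of the list the median was 11.0%, with 5 genes below Gad2, among them the homeobox genes Dlx2 (2.54%) and Dlx1 (3.90%), and 7 above Slc32a1, among them Dlx6 (14.3%). Of 11 measured genes of hindbrain and spinal inhibitory neurons, 8 were at least 2-fold lower in telencephalon and 1 higher (sums of 16.7 FPKM in telencephalon and 82.3 in whole body). Tal1, also a gene of blood cells, made up 41.2 FPKM of the whole-body sum, and without it and Gata2, another gene of blood cells, the sums were 14.3 and 33.9 FPKM in the same order. The glycine transporter Slc6a5 of that list, named for its role after its value was seen, was at 0.0326 FPKM in telencephalon on about 5 fragments, against 1.14 in whole body, and Pax2, a transcription factor of spinal inhibitory neurons and kidney, at 0.0843, against 5.68. Whether those neurons carry the whole-body Gad1, Gad2 and Slc32a1 RNA was not tested.

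By levels over these 2 libraries alone, the genes nearest to Gad1 were Nol4 (36.6 FPKM in telencephalon, 3.87 in whole body), Fam131a (28.3 and 3.16 FPKM) and Dlx6 (27.2 and 3.89 FPKM). Those nearest to Gad2 were Sox1 (40.6 and 1.83 FPKM), Gm14204 (41.4 and 2.71 FPKM) and Wnt7a (28.9 and 2.02 FPKM). Likeness was the distance of log2(FPKM + 1), and 2 libraries cannot show more than a shared level.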

How the data were processed

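Total RNA of the telencephalon and of the whole body of ICR fetuses at E12.5 was sequenced, per the labels' protocols, after preparation with a TruSeq RNA v2 kit on a HiSeq 2000. The authors deposited FPKM per gene and per isoform, in a column per library. The submitters' processing notes name TopHat, Cufflinks, Cuffdiff and GRCm38, with no versions. Their annotation release was not given in the sources used here, and no count model was run on these FPKM.

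Exons, coordinates and isoform types come from GENCODE M21 (GRCm38), matched on the transcript identifier. Depth was taken from the lowest FPKM steps of single-isoform genes. It came to about 22600000 fragments in telencephalon and 28900000 in whole body, with 326 and 301 bases subtracted from transcript lengths. At 2000 bases, 1 fragment was worth 0.0264 and 0.0204 FPKM. Among single-isoform genes of at least that length, 91.0% of 1401 values and 92.9% of 1181 lay within 0.1 of a whole number of fragments; genes that set the step are included, so the check is partly circular. Fragment numbers are FPKM times corrected length times depth.

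Log2 ratios are telencephalon over whole body with a pseudocount of 1 FPKM, which understates differences of weak genes; folds are plain FPKM ratios. Intervals are exact binomial (95%) on fragment estimates, and for the ratio of ratios the conditional exact interval of the odds ratio; reads without molecular identifiers are not independent molecules, so these cover counting error only. The members and lists were chosen with earlier results of these data known. All 8 members are named, every Gad1 isoform, isoforms of 5% or more in the others, and from each list the 3 highest and 3 lowest genes as candidates. Tubb3, Clcn4, Epb41l1 and Insyn1 were not analysed here. Python 3.11.15, pandas 2.3.3 and SciPy 1.17.1 were used.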

Additional observations from a re-analysis of the deposited data

How the results depend on the processing

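The count of 5 of the 8 genes at least 2-fold higher in telencephalon was the same under the 9 alternatives tried for it: pseudocounts of 0.1 FPKM and 0, no floor and a floor of 5 FPKM, a common upper quartile, rescaling to TPM, and sums of all, of longer (300 bases or more) and of protein-coding isoforms. With the floor of 5 FPKM Slc6a11 was not measured. All 72 log2 ratios recomputed for the 8 genes kept their direction, and 23 moved by more than counting error. The common upper quartile moved the median log2 ratio of all genes to 0.04, against -0.16 as deposited, a shift larger than the whole ratio of Slc6a11 (0.08). The number of genes past 2-fold ranged from 3223 to 5720, against 4578.

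The Slc12a2 to Slc12a5 ratio, telencephalon relative to whole body, ranged from 0.851 to 0.960. The Gad1 to Gad2 ratio, telencephalon relative to whole body, was 0.528 and turned to 1.36 with protein-coding isoforms, where the whole-body ratio was 0.637, against 1.59. It was 0.605 with Gad1-206 added to these and 0.656 from estimated fragments. These alternatives were chosen after seeing the data. The share of Gad1-201 depended on how it was counted. In telencephalon it was 56.1% of FPKM, 81.6% of estimated fragments, in which long isoforms weigh more, and 65.5% among protein-coding isoforms. In whole body it was 3.95% of FPKM and 10.7% among protein-coding isoforms, from which Gad1-206 is absent by construction. Joined with Gad1-206, an alternative chosen after seeing the data, it was 50.3% in whole body. No paired analysis was possible because each group has 1 library. Depth limits the minor isoforms, several of which rest on fewer than 20 fragments in whole body.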
